A study of Mus musculus with 6 samples.

Results

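Notch signalling was examined in liver sinusoidal endothelial cells (LSECs) of *Txnip-/-* and WT mice through 10 genes, the receptors *Notch1*, *Notch2*, *Notch3* and *Notch4*, the ligands *Dll1*, *Dll4*, *Jag1* and *Jag2*, and the target genes *Hey1* and *Hes1*. They were chosen by symbol as core parts of the pathway, and all 10 were found among the 23282 rows of the count table. QuantSeq, which sequences the 3′ end of mRNA, had been done on LSECs, the fenestrated endothelium of the liver sinusoids, with 3 libraries per genotype. *Txnip-/-* mice lacked *Txnip*, which encodes thioredoxin-interacting protein, in the whole body on a C57BL/6J background, and the WT controls were C57BL/6J mice. The deletion was therefore not limited to LSECs. The cells were obtained by collagenase perfusion, density gradient and magnetic selection for CD146, a surface protein that other endothelial cells also carry. The study's methods describe culture of the selected LSECs in endothelial growth medium, and whether the RNA was taken before or after culture was not stated, so the levels may be those of cultured cells. The labels of the libraries gave no age, sex, diet or treatment, and did not state that each library came from a separate mouse, so p-values measured the spread between these libraries.

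Notch receptors are cut after binding a ligand on a neighbouring cell, first by ADAM10 and then by gamma-secretase, and the freed intracellular domain joins RBPJ in the nucleus to switch on genes such as the Hes and Hey repressors. In endothelium the pathway is known for arterial identity and for the choice between tip and stalk cells, in which *Dll4* and *Jag1* act as ligands with different effects. In the liver it is known for bile duct formation through *Jag1* and for keeping the sinusoidal endothelium differentiated.

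The counts summed to 9147764, 10193952 and 9632360 in *Txnip-/-* replicates 1, 2 and 3, and to 9745357, 9951078 and 9699159 in the WT replicates. Levels are given as CPM, counts scaled to a common library size. A QuantSeq read marks the end of a transcript, so CPM does not grow with transcript length, and levels of different genes were set side by side on this basis. Reads with several alignments, or from genes on the opposite strand, can still add to a row, so such comparisons between genes are approximate. At these depths 3 counts, taken as the floor of detection, equalled 0.286 to 0.335 CPM. No molecular identifiers were named, so this floor covers counting error only.

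*Txnip* itself was counted 269, 216 and 191 times in the *Txnip-/-* libraries and 1901, 2019 and 1994 times in the WT libraries. Every library matched its labelled genotype, and *Txnip* fell by 3.02 on the log2 scale (standard error 0.14, adjusted p = 6.94e-10, edgeR). The WT libraries were not alike. Ribosomal RNA precursor reads (*Rn45s*) made up 10.03% and 9.68% of WT replicates 1 and 2 but 17.8% of WT replicate 3, against 17.0%, 18.6% and 16.8% in the *Txnip-/-* libraries. By a chi-square of their counts, divided by its degrees of freedom, for genes with a mean of 10 counts or more, WT replicates 1 and 2 differed by 3.93. WT replicate 3 differed from them by 36.9 and 40.05 and from the *Txnip-/-* libraries by 13.3 to 17.2. The *Txnip-/-* libraries differed from each other by 8.41 to 9.62, and from WT replicates 1 and 2 by 28.8 to 44.2. *Rn45s* was among the genes in this chi-square, so the chi-square in part repeats the *Rn45s* shares and is not separate evidence. It was not computed without *Rn45s*. Values without WT replicate 3 are therefore given for several of the genes described.

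No listed Notch gene passed the genotype test. Of the 10 genes, 6 had enough counts to be tested (*Notch1*, *Notch2*, *Notch4*, *Dll4*, *Jag1* and *Hes1*), and 0 of these had an adjusted p under 0.05 in edgeR's quasi-likelihood test, where 179 of the 11583 genes tested did (1.55%; 66 higher and 113 lower in *Txnip-/-* LSECs). At an unadjusted p under 0.05 the count was 0 of 6 with edgeR, where 1336 of all genes passed (11.5%). DESeq2, which gave a p for all 10 genes, also had 0 adjusted and 0 unadjusted, and limma-trend gave 0 adjusted and 1 unadjusted (*Notch4*). Of the 6 genes 2 had a higher and 4 a lower mean in *Txnip-/-* LSECs, with a median log2 fold change of -0.13 beside -2.75e-05 over all genes tested. A p that misses the threshold does not show that the genotypes were alike, so the 95% interval of each difference is given.

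**Figure D1:**
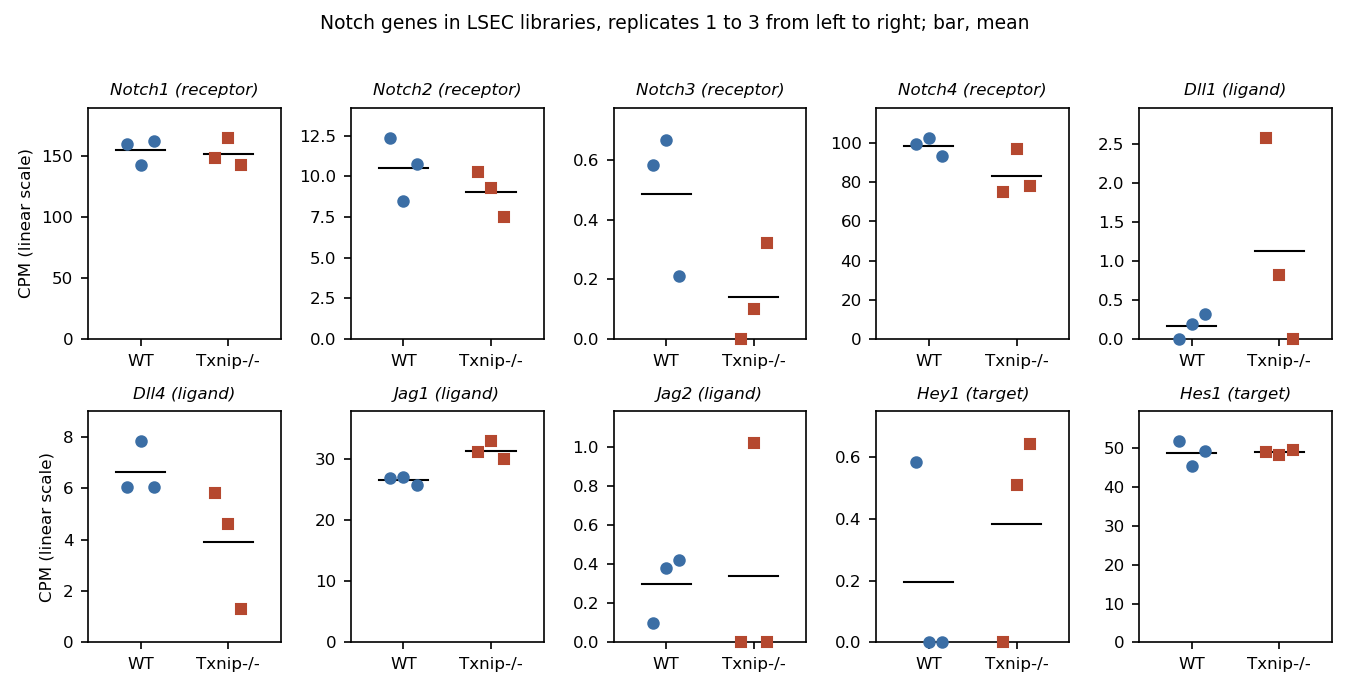
Level of each listed Notch gene in CPM on a linear axis from 0, one panel per gene. Circles are the 3 WT libraries, squares the 3 *Txnip-/-* libraries and bars the group means. The groups were apart for *Dll4* (lower in *Txnip-/-*) and *Jag1* (higher in *Txnip-/-*) and overlapped in the other panels.

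Among the receptors, *Notch1* and *Notch4* were the main transcripts of these cells. *Notch1*, the receptor most widely used in endothelium (chr2:26457903-26516663, minus strand, 34 exons in its longest transcript), had 148, 165 and 143 CPM in *Txnip-/-* replicates 1, 2 and 3 and 160, 143 and 163 CPM in the WT replicates. The ranges of the genotypes overlapped in large part, with *Txnip-/-* replicate 2 above every WT library. The means were 152 ± 11.7 and 155 ± 10.9 CPM (SD, n = 3 each), and the log2 fold change of *Txnip-/-* against WT was -0.028 (95% interval -0.24 to 0.18, adjusted p = 0.949, edgeR). The last 500 bases of *Notch1* overlap exons of *Gm13568* and a Riken transcript on the opposite strand, and since use of strand in the counting was not stated, reads of these genes and of *Notch1* cannot be told apart.

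*Notch4* (chr17:34564268-34588503, plus strand, 30 exons), a receptor made mainly by endothelial cells, had 74.8, 97.0 and 78.0 CPM in the *Txnip-/-* libraries and 99.5, 103 and 93.5 CPM in the WT libraries. *Txnip-/-* replicates 1 and 3 lay below every WT library, while replicate 2 lay between WT replicates 3 and 1. With means of 83.3 ± 12.0 and 98.6 ± 4.66 CPM, the log2 fold change was -0.24 (standard error 0.12, 95% interval -0.49 to 0.0022), and the p was 0.0518 before and 0.439 after adjustment in edgeR. Without WT replicate 3 it was -0.28 (adjusted p = 0.281, edgeR), and without *Txnip-/-* replicate 2, the high one, -0.37 (adjusted p = 0.205, edgeR). Without the filter on low counts the p was 0.0348 before and 0.429 after adjustment in edgeR. Over all alternative settings its adjusted p lay between 0.205 and 0.787, and its sign was negative in each.

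*Notch2* (chr3:98013527-98150361, plus strand, 34 exons), the receptor needed together with *Jag1* for bile ducts, was scarcer, at 10.3, 9.28 and 7.48 CPM in the *Txnip-/-* libraries and 12.4, 8.48 and 10.8 CPM in the WT libraries. The ranges overlapped, and the log2 fold change of -0.23 had a 95% interval from -0.79 to 0.34 (adjusted p = 0.840, edgeR). Leaving out WT replicate 1 brought it to -0.098 and leaving out WT replicate 2 to -0.36. *Notch3* (chr17:32120820-32166852, minus strand), the receptor of pericytes and smooth muscle, was counted 0, 1 and 3 times in *Txnip-/-* and 6, 7 and 2 times in WT libraries. This was near the floor, and the filter on low counts left it out of the main test. Fitted without that filter it had a log2 fold change of -1.71 (adjusted p = 0.816, edgeR).

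Together the receptors reached 233, 272 and 229 CPM in the *Txnip-/-* libraries and 273, 254 and 267 CPM in the WT libraries, so the summed level overlapped between genotypes. Within that sum *Notch1* made up 63.6%, 60.8% and 62.4% of the receptor counts for *Txnip-/-* and 58.8%, 56.0% and 60.9% for WT, by replicate. *Notch4* held 32.0%, 35.7% and 34.1% against 36.5%, 40.4% and 35.0%. The order of the receptors, *Notch1* above *Notch4* above *Notch2* above *Notch3*, was the same in all 6 libraries. For both shares the overlap lay between *Txnip-/-* replicate 2 and WT replicate 3. As these receptors made up nearly all of the sum, a higher share of one is a lower share of the other, and the pair is a single observation. The *Notch1* counts behind both shares may include reads of the exons on the opposite strand.

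**Figure D2:**
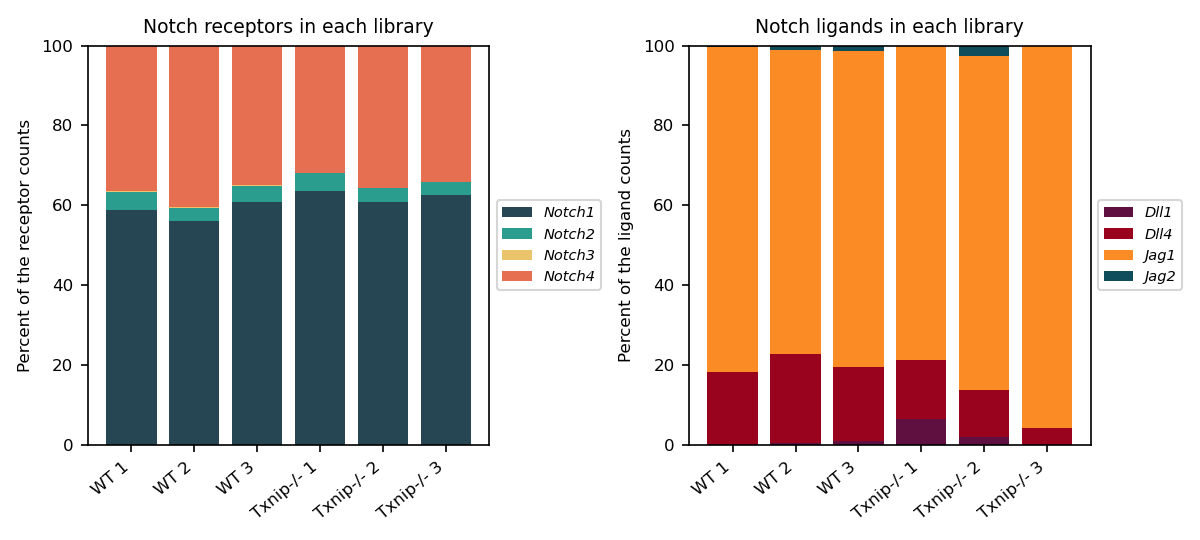
Share of each receptor in the receptor counts and of each ligand in the ligand counts, in percent, with 1 bar per library. *Notch1* and *Notch4* fill nearly all of the receptor bars, and *Jag1* fills 76.3% to 95.9% of the ligand bars.

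Among the ligands *Jag1* led in every library. *Jag1* (chr2:137081456-137116644, minus strand, 26 exons), which in the liver is best known from bile ducts and portal mesenchyme, had 31.2, 32.8 and 29.9 CPM in the *Txnip-/-* libraries and 26.8, 27.0 and 25.7 CPM in the WT libraries. All 3 *Txnip-/-* libraries were above the highest WT library, as for 8.43% of all genes tested. The means were 31.3 ± 1.45 and 26.5 ± 0.677 CPM (SD, n = 3 each), and the log2 fold change of 0.24 (standard error 0.15, 95% interval -0.079 to 0.56) did not pass the test (adjusted p = 0.597, edgeR). It was 0.22 without WT replicate 3 (adjusted p = 0.635, edgeR), and lay between 0.16 and 0.28 over all alternative settings, the highest being against WT replicate 3 alone.

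*Dll4* (chr2:119325784-119335962, plus strand, 11 exons), the ligand of arterial and tip cells, was counted 52, 45 and 12 times in the *Txnip-/-* libraries and 62, 82 and 57 times in the WT libraries. In CPM these were 5.81, 4.59 and 1.28 against 6.03, 7.81 and 6.03. All 3 *Txnip-/-* libraries were below the lowest WT library, as for 8.94% of all genes tested, but *Txnip-/-* replicate 1 lay close to the lowest WT libraries and replicate 3 far below the other 5 libraries. The log2 fold change was -0.77 (standard error 0.46, 95% interval -1.74 to 0.20, adjusted p = 0.568, edgeR). It rested largely on *Txnip-/-* replicate 3, since without that library it was -0.36 (adjusted p = 0.797, edgeR), and without WT replicate 3 it was -0.83 (adjusted p = 0.495, edgeR).

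*Dll1*, the ligand that guides monocyte fate and segmentation, was uneven, counted 23, 8 and 0 times in *Txnip-/-* and 0, 2 and 3 times in WT libraries. *Jag2* had 0, 10 and 0 counts against 1, 4 and 4. *Dll1* was at 0 in *Txnip-/-* replicate 3 and WT replicate 1, and *Jag2* in *Txnip-/-* replicates 1 and 3. Both overlapped between genotypes and were left untested by the filter on low counts. In a fit without that filter, over 16763 genes, the log2 fold changes were 2.65 for *Dll1* (adjusted p = 0.609, edgeR) and 0.18 for *Jag2* (adjusted p = 0.99, edgeR), and that of *Dll1* came from *Txnip-/-* replicates 1 and 2.

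Since *Jag1* lay higher and *Dll4* lower in *Txnip-/-* LSECs, the balance of the ligands was set out by library. *Jag1* counts exceeded those of *Dll4* by 5.37, 7.16 and 23.3 times in the *Txnip-/-* libraries and by 4.44, 3.45 and 4.26 times in the WT libraries. The ratios cannot overlap once *Jag1* lies above and *Dll4* below WT in each library, so they add no evidence to the separate values. The widest ratio belonged to *Txnip-/-* replicate 3, and neither gene passed the test by itself. The ligands together had 39.5, 39.2 and 31.2 CPM in the *Txnip-/-* libraries and 32.9, 35.3 and 32.5 CPM in the WT libraries, and overlapped. Receptor counts exceeded ligand counts by 5.91 to 7.32 times in the *Txnip-/-* libraries and by 7.20 to 8.29 times in the WT libraries.

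Of the targets, *Hes1* had the same mean level in both genotypes and *Hey1* was near the floor. *Hes1* (chr16:30064384-30067796, plus strand, 4 exons), a repressor that Notch switches on in many tissues and that other signals also induce, had 48.9, 48.3 and 49.5 CPM in the *Txnip-/-* libraries and 51.8, 45.5 and 49.3 CPM in the WT libraries. The *Txnip-/-* values lay inside the WT range. The means were 48.9 ± 0.591 and 48.9 ± 3.15 CPM (SD, n = 3 each), and the log2 fold change of 0.0012 had a 95% interval from -0.26 to 0.26 (adjusted p = 0.998, edgeR). Its sign turned with small changes of the processing, as for any value this near 0. *Hey1* (chr3:8663359-8667256, minus strand, 5 exons), the repressor most tied to arterial endothelium, was counted 0, 5 and 6 times in *Txnip-/-* and 6, 0 and 0 times in WT libraries. It was at 0 in libraries of both genotypes and was left out of the main test by the filter on low counts. Fitted without that filter it had a log2 fold change of 0.93 (adjusted p = 0.908, edgeR).

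Of the other target genes listed (*Hes2*, *Hes3*, *Hes5*, *Hes6*, *Hes7*, *Hey2*, *Heyl* and *Nrarp*), 2 of 8 were tested and 0 passed. *Hes5* was at 0 in all libraries, *Hey2* had a single count in WT replicate 1, and *Heyl* had at most 5 counts in any library. *Nrarp*, a feedback inhibitor that Notch induces and that destabilises the receptor's intracellular domain, was the most abundant of them and had 35.3, 42.1 and 27.6 CPM in the *Txnip-/-* libraries and 43.3, 46.4 and 51.7 CPM in the WT libraries. All 3 *Txnip-/-* libraries were below the lowest WT library, narrowly so for *Txnip-/-* replicate 2. The log2 fold change of -0.43 (95% interval -0.77 to -0.091) had a p of 0.0158 before and 0.283 after adjustment in edgeR, so it did not pass. It was -0.36 without WT replicate 3 and -0.29 without *Txnip-/-* replicate 3 (adjusted p = 0.349 and 0.541, edgeR). An exon of *Gm38287* overlaps the end of *Nrarp* on the opposite strand.

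Across the 6 libraries the log2 CPM of *Nrarp* followed that of *Dll4* with a Pearson r of 0.844 and that of *Notch4* with 0.785, while with *Hes1* it was -0.195. These are descriptions over 6 libraries that share genotype, scaling and depth, and r was computed for 21 pairs. *Txnip-/-* replicate 3 was the lowest library for both *Dll4* and *Nrarp*. As a ratio, *Nrarp* counts stood to *Hes1* counts as 0.721, 0.871 and 0.557 in the *Txnip-/-* libraries and as 0.836, 1.02 and 1.05 in the WT libraries, which overlapped.

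The rest of the pathway was examined through 64 further genes, of which 52 were tested. With edgeR 0 of the 52 passed an adjusted p under 0.05, and 9 had an unadjusted p under 0.05, 3 higher and 6 lower in *Txnip-/-* LSECs, where 11.5% of all genes tested had such a p. DESeq2, with a p for 60 of the 64, gave 0 adjusted calls and 8 unadjusted, where 1336 of 16762 genes had such a p. With limma-trend these counts were 0 and 10, where 1375 of 11583 genes had such a p. The median log2 fold change was -0.038, 22 genes had a higher and 30 a lower mean, and the *Txnip-/-* libraries were all below the WT libraries for 7 genes and all above for 4, as for 8.94% and 8.43% of all genes tested. Without WT replicate 3, *Ncor1* passed at a log2 fold change of -0.34 (adjusted p = 0.0485, edgeR). A further fit set WT replicates 1 and 2 apart by a term of their own, which left WT replicate 3 as the single WT library against *Txnip-/-*, too few to support a call. Against it *Ncor1* lay at -0.021, and *Egfl7*, a secreted endothelial protein that binds Notch receptors, lay at -0.39 with an adjusted p of 0.0442 in edgeR. *Egfl7* was named after its values were seen and had -0.15 with all 6 libraries and no such term (adjusted p = 0.635, edgeR), and -0.019 without WT replicate 3 (adjusted p = 0.955, edgeR).

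Of the 10 genes for cutting the receptor, all tested, 3 had a higher and 7 a lower mean, and 1 had an unadjusted p under 0.05 in edgeR. *Adam10*, the protease of the first cut, had 101 ± 8.29 CPM in *Txnip-/-* and 101 ± 9.44 CPM in WT libraries, and its log2 fold change was 0.0070 (95% interval -0.22 to 0.24, adjusted p = 0.989, edgeR). *Aph1b*, a part of gamma-secretase, had 18.1, 19.5 and 16.7 CPM in the *Txnip-/-* libraries and 26.3, 22.5 and 28.7 CPM in the WT libraries. Its groups did not overlap, and the log2 fold change of -0.51 (95% interval -0.89 to -0.13) did not pass the test (adjusted p = 0.242, edgeR). *Aph1b* has a close copy, *Aph1c*, which had 4.13, 0.917 and 1.07 CPM in the *Txnip-/-* libraries and 3.99, 3.24 and 7.51 CPM in the WT libraries. These overlapped, and the log2 fold change of -1.27 (95% interval -2.55 to 0.012) did not pass (adjusted p = 0.439, edgeR). Reads with several alignments were counted, so the 2 rows may share reads and need not be separate observations.

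In the nucleus, *Rbpj*, the DNA-binding partner of the cut receptor, had 44.2 ± 3.58 CPM in *Txnip-/-* and 43.4 ± 0.994 CPM in WT libraries (log2 fold change 0.026, 95% interval -0.25 to 0.30, adjusted p = 0.965, edgeR). Of the 9 genes of the nuclear complex and its coactivators, all tested, 4 had a higher and 5 a lower mean, and 0 had an unadjusted p under 0.05 in edgeR. Among the 13 tested corepressors, 4 had such a p, where 11.5% of all genes tested did, and 0 passed after adjustment in edgeR. *Hdac2*, a histone deacetylase, had a log2 fold change of 0.29 (adjusted p = 0.323, edgeR). The Groucho family corepressors *Tle1* and *Tle4* had -0.29 and -0.25 (adjusted p = 0.348 and 0.378, edgeR), and both had all *Txnip-/-* libraries below the lowest WT one. *Ncor1*, the most abundant corepressor of the list, had 342, 319 and 417 CPM in the *Txnip-/-* libraries and 467, 443 and 365 CPM in the WT libraries, a log2 fold change of -0.24 (adjusted p = 0.401, edgeR). The high *Txnip-/-* library overlapped the low WT library, replicate 3. The end of *Ncor1* overlaps an exon of *Ttc19* on the opposite strand, a gene that had 77 to 147 counts in these libraries.

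Genes that restrain or recycle Notch gave values in both directions. *Numbl*, a relative of the inhibitor Numb, had 17.3, 17.8 and 24.2 CPM in the *Txnip-/-* libraries and 9.83, 12.9 and 16.5 CPM in the WT libraries, a log2 fold change of 0.60 without overlap (95% interval 0.11 to 1.09, adjusted p = 0.303, edgeR). It was 0.80 without WT replicate 3 (adjusted p = 0.0907, edgeR), and 0.26 against WT replicate 3 alone, an arm of 1 library. *Numb* itself lay the other way at -0.33, with overlap (95% interval -0.74 to 0.080, adjusted p = 0.558, edgeR). *Itch*, a ubiquitin ligase that takes Notch to degradation, had 0.32 (95% interval 0.0039 to 0.64, adjusted p = 0.427, edgeR). *Dtx3*, of the Deltex family, had -0.62 (95% interval -1.14 to -0.11, adjusted p = 0.305, edgeR). *Mib1*, the ligase that lets a ligand-bearing cell pull on the receptor, had 8.05 ± 3.18 and 8.23 ± 1.27 CPM (log2 fold change -0.036, 95% interval -0.71 to 0.64, adjusted p = 0.981, edgeR). Of the 5 glycosylation genes, which include the Fringe enzymes that tune the choice of ligand, 0 had an unadjusted p under 0.05 in edgeR.

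**Figure D3:**
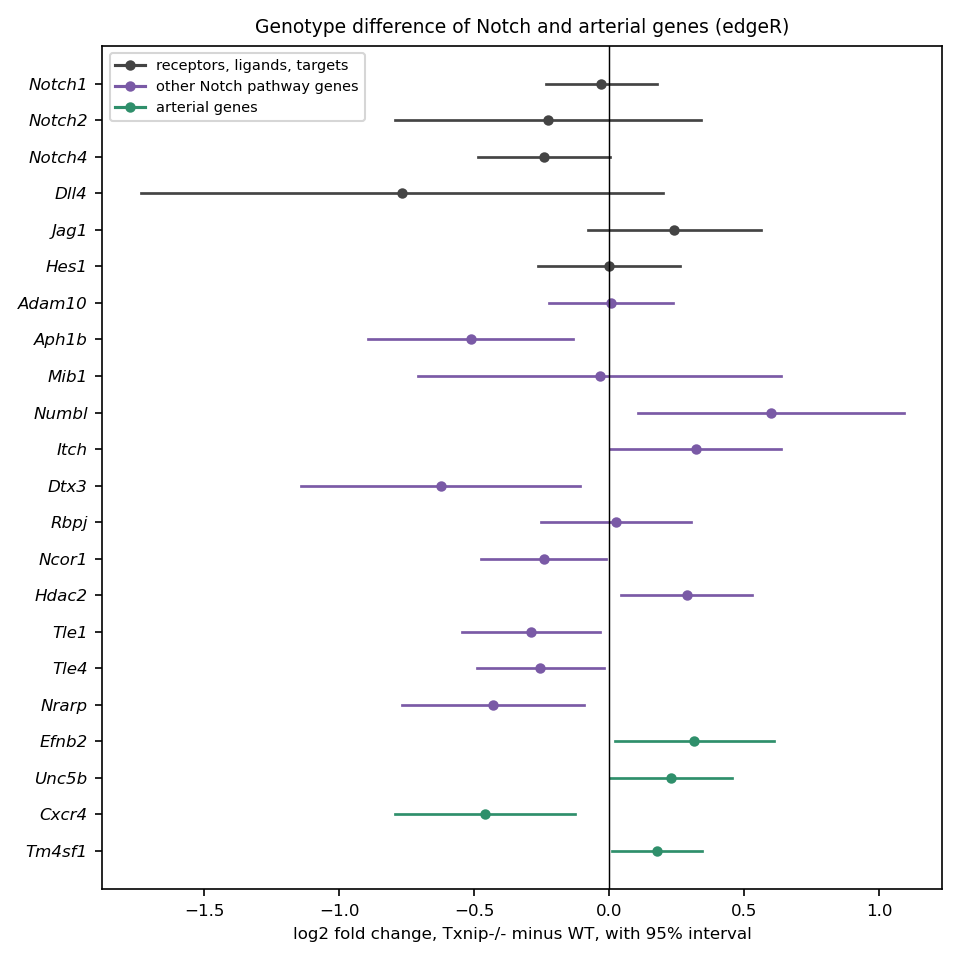
Log2 fold change of *Txnip-/-* against WT (horizontal axis, log2 units) with its 95% interval from edgeR, for the tested receptors, ligands and targets and for other tested Notch and arterial genes. *Numb*, *Egfl7* and *Aph1c*, also described, are not drawn. The intervals of all 6 listed Notch genes span 0, and that of *Dll4* is the widest drawn.

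Arterial genes were added because Notch activity is known to be high on the arterial side. Of 12 listed, 9 were tested and 0 passed with edgeR, DESeq2 or limma-trend, while 4, 2 and 4 had an unadjusted p under 0.05 with these tools. DESeq2 gave a p for 11 of the 12. Over all genes tested the edgeR share was 11.5%, and the arterial genes were not tested as a set. *Cxcr4*, a chemokine receptor gene of tip and arterial cells, had 27.6, 24.7 and 23.0 CPM in the *Txnip-/-* libraries and 31.7, 33.7 and 38.0 CPM in the WT libraries. The groups did not overlap, and the log2 fold change was -0.46 (95% interval -0.79 to -0.13, adjusted p = 0.226, edgeR). *Efnb2*, the arterial ephrin that Notch is known to induce, lay the other way, with 58.8, 48.3 and 45.5 CPM against 38.3, 40.6 and 43.9 CPM (log2 fold change 0.32, adjusted p = 0.389, edgeR). Without *Txnip-/-* replicate 1 its log2 fold change was 0.20. *Unc5b* and *Tm4sf1* had log2 fold changes of 0.23 and 0.18 (adjusted p = 0.427 and 0.388, edgeR), each with all *Txnip-/-* libraries above the highest WT one. *Sema3g* was at 0 in all libraries, and *Gja5* and *Bmx*, further genes of arteries, had means under 0.1 CPM in both genotypes. The arterial genes thus lay on both sides of 0, as 4 higher and 5 lower means.

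Other cells of the liver also carry Notch genes, and markers of macrophages and some of mesenchymal cells differed by genotype in the same libraries. The 12 markers of LSECs and endothelium were all tested, all had a lower mean in *Txnip-/-* LSECs, and *Stab1* and *Stab2* fell with adjusted p of 0.00984 and 0.0448 (edgeR). *Stab1* lost the call without *Txnip-/-* replicate 2 or 3 (adjusted p = 0.0839 and 0.0739, edgeR), and *Stab2* lost it with any library left out except WT replicate 3 (adjusted p up to 0.256, edgeR). With the replicate block both lost it (adjusted p = 0.0507 and 0.135, edgeR). Whichever library was left out, the log2 fold change stayed between -0.51 and -0.41 for *Stab1* and between -0.40 and -0.34 for *Stab2*. The summed level of these markers was 4643, 4945 and 5055 CPM in the *Txnip-/-* libraries and 6947, 7125 and 5357 CPM in the WT libraries, and it followed *Lyve1*, the most abundant, which had 3482 and 3780 CPM in WT replicates 1 and 2 and 1520 CPM in WT replicate 3. *Lyve1* had a log2 fold change of -0.79 and did not pass (adjusted p = 0.0880, edgeR), but it passed without WT replicate 3 at -1.10 (adjusted p = 5.16e-08, edgeR) and without the filter on low counts at -0.79 (adjusted p = 1.12e-23, edgeR).

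Of the 13 markers of Kupffer cells and macrophages, 12 were tested. All 12 had each *Txnip-/-* library below the lowest WT one, as for 8.94% of all genes tested. The test was passed by 11 (edgeR), where 1.55% of all genes tested passed in either direction. The 13 markers summed to 315, 306 and 340 CPM in the *Txnip-/-* libraries and 777, 742 and 762 CPM in the WT libraries. *Marco* was the most abundant, and *Cd163* had a log2 fold change of -2.07 (adjusted p = 5.48e-07, edgeR). Of the 14 markers of stellate and mesenchymal cells, 11 were tested, all 11 had a higher mean and 3 rose (*Tagln*, *Dcn* and *Acta2*). The ends of *Stab1* and *Tagln* overlap exons of *Nt5dc2* and of *Pcsk7* and *Gm48529* on the opposite strand. *Acta2* lost the call without WT replicate 1 (adjusted p = 0.0547, edgeR), and its log2 fold change against WT replicate 3 alone was 1.21. The summed level of this list was 114, 126 and 112 CPM against 57.6, 60.0 and 58.9 CPM, with *Tagln* the most abundant. Hepatocyte markers summed to 61.7, 59.9 and 63.7 CPM against 51.9, 50.2 and 55.3 CPM, and 0 of 7 tested genes were called by edgeR. Of these 6 had a higher mean, while *Alb*, the most abundant, had the single lower one (log2 fold change -0.14).

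Markers of bile duct cells, which make *Jag1* and *Notch2*, summed to 7.93, 5.10 and 3.21 CPM in the *Txnip-/-* libraries and 2.24, 2.67 and 7.83 CPM in the WT libraries. Of these 8 genes *Sox9* was the single one tested and the most abundant over all 6 libraries together. In the *Txnip-/-* libraries *Krt7* had a higher mean than *Sox9* (1.24 against 1.13 CPM). Lymphocyte markers summed to at most 6.29 CPM, nearly all of it *Ptprc*, with *Cd3e*, *Cd3d*, *Ms4a1*, *Nkg7* and *Klrb1c* among those at 0. Other leukocytes, Kupffer cells included, also carry *Ptprc*, so this sum does not measure lymphocytes. Neutrophil markers summed to at most 0.67 CPM, with *Mpo*, *Elane*, *Camp* and *Retnlg* at 0. *Csf3r* was the most abundant of them over all 6 libraries together, while *S100a9* had the higher WT mean (0.13 against 0.064 CPM). *Jag1* is also made by mesenchymal cells and *Notch2* by macrophages, and the part of these cells in the levels of the Notch genes was not tested. In bulk RNA, fewer cells of a type and less RNA per cell cannot be told apart.

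Promoter sequence was read from RefSeq windows of 300 bases, from 250 before to 50 after a transcript start, on assembly GRCm38.p6. Of the 10 listed genes 8 had a window, 9 windows in all, and *Hes1* and *Hey1* had none. The core letters of RBPJ sites, TGGGAA, were searched on both strands and were in 0 of these 9 windows, and in 25.6% of all 32851 windows. The letters CACNAG, the N-box bound by Hes proteins, were in 5 of the 9 and in 42.5% of all windows. The letters CACGTG, an E-box bound by Hey proteins, which cannot match the same run of letters as the N-box, were in 0 of the 9 and in 7.15% of all windows. A missing match says only that these letters are not in this window. The windows of *Dll4* and *Jag1*, the listed genes whose genotypes did not overlap, and of the feedback gene *Nrarp* are shown 5′ to 3′ on the strand of the gene, with matches in capitals. They lie at chr2:119325534-119325833 (plus strand), chr2:137116471-137116770 (minus strand) and chr2:25180508-25180807 (plus strand). *Dll4* holds 1 N-box, *Jag1* holds none of the searched letters, and *Nrarp* holds 1 E-box and, on the other strand, 2 N-boxes.
Dll4: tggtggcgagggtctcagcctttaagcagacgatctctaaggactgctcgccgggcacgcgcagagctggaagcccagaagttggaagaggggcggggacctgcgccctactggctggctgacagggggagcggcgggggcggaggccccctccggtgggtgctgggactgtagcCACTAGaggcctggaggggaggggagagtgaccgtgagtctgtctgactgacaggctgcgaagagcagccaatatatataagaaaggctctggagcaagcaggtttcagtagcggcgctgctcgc
Jag1: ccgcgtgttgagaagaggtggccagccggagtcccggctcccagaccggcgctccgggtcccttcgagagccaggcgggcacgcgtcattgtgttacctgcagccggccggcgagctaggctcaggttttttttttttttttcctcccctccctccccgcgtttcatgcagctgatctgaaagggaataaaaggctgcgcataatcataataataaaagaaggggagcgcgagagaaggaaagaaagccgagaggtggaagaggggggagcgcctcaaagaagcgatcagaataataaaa
Nrarp: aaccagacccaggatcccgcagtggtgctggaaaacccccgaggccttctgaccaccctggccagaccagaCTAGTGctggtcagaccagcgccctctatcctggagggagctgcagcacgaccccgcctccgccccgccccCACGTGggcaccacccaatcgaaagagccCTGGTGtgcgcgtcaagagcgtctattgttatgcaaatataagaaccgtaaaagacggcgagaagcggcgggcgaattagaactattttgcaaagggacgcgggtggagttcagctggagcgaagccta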

How the data were processed

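QuantSeq libraries of LSEC RNA, 3 per genotype, were grouped by the genotype in the labels. The deposited files hold whole-number counts per gene symbol, which the authors made by aligning the reads with Bowtie2 and counting unique and multiple alignments with Bedtools, without normalization. The submitters' processing notes name the build mm10. Versions, annotation and use of strand were not given in the sources used here. Reads with several alignments can be given to each near-identical copy of a gene, and no molecular identifiers are named.

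In R 4.3.3, edgeR 4.0.16 was used on the counts with filterByExpr (11583 of 23282 rows), TMM factors, glmQLFit and glmQLFTest. Genotype was the only term, and p-values were adjusted over all genes tested by the Benjamini-Hochberg method. Standard errors were the absolute log2 fold change divided by the root of F, and 95% intervals from the total degrees of freedom. CPM used the same scaled library sizes, and log2 CPM a prior count of 2. The 44 rows that repeat a symbol were kept apart. The test was checked on simulated data. Gene positions were taken from GENCODE M21 (GRCm38), and 3′ overlaps were sought in the last 500 bases of each gene. Python 3.11.15 was used for these and for the RefSeq promoter windows.

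The listed genes, the pathway, arterial and marker lists were chosen with earlier results of these data known. Other pathway and arterial genes were named when their unadjusted p was under 0.05 (up to 10 and 6), with *Hes5*, *Hey2*, *Heyl*, *Nrarp*, *Rbpj*, *Adam10* and *Mib1* always named, and of each marker list the most abundant gene and up to 4 called ones. Some genes of these lists are counted but not reported here by name. Genes with a like pattern were to be sought for listed genes with an unadjusted p under 0.05, and 0 met that rule in edgeR with the filter on low counts, while *Notch4* would have without it. Alternatives were DESeq2 1.42.0, limma-trend (limma 3.58.1), RLE, upper quartile or no factors, no filter, at least 10 counts in every library, a replicate block, each library left out, *Rn45s* left out, a term for WT replicates 1 and 2 that leaves WT replicate 3 as the single WT library compared, and an adjusted p under 0.1.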

Additional observations from a re-analysis of the deposited data

How the results depend on the processing

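The count of listed Notch genes with an adjusted p under 0.05 was 0 under each of the 17 alternatives, and that of arterial genes also. Among the other Notch pathway genes it was 1 without WT replicate 3 (*Ncor1*; 0 to 1 with each library left out) and 1 with a term for WT replicates 1 and 2 (*Egfl7*), and 0 otherwise. That term leaves WT replicate 3 as the single WT library compared, so its values describe a contrast with 1 library and say nothing on stability. Among all genes it was 179, with 346 when no filter was used, and 89 to 367 with each library left out, the highest without WT replicate 3. With the replicate block it was 108, a fit with fewer residual degrees of freedom. Same-numbered libraries deviated from their genotype means with correlations of -0.03, 0.017 and -0.047, which gives no sign of pairs.

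*Notch2*, *Notch4*, *Dll4*, *Jag1* and *Nrarp* kept their signs throughout. *Dll4* ranged from -1.17 to -0.36 with each library left out. Against WT replicate 3 alone, the low WT library for this gene, *Lyve1* had 0.16 where it had -0.79 against all WT libraries and -1.10 without WT replicate 3. The other signs that turned belonged to main values between -0.14 and 0.12. No cause was tested. Without normalization factors, which moved the median of all genes to -0.082, the log2 fold change was -0.081 for *Hes1*, -0.056 for *Rbpj* and -0.078 for *Adam10*. Without a filter *Hes1* had -0.0049. Against WT replicate 3 alone it was -0.011 for *Hes1*, -0.0078 for *Rbpj*, 0.25 for *Mib1* and -0.58 for *Sox9*. With each library left out, values ranged from -0.091 to 0.012 for *Notch1*, -0.048 to 0.043 for *Hes1*, -0.031 to 0.088 for *Rbpj*, -0.068 to 0.059 for *Adam10*, -0.41 to 0.12 for *Mib1*, -0.13 to 0.63 for *Sox9* and -0.43 to 0.11 for *Alb*. The filter on low counts kept *Notch3*, *Dll1*, *Jag2* and *Hey1* out of the main test, and none of them exceeded 23 counts. The part of sequencing depth in these low counts was not tested.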
